A study of Homo sapiens with 6 samples.

Results

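The genes examined here are the endosomal sorting genes of DU145 cells, taken by name: every protein-coding gene of the deposited table whose symbol is VPS followed by a number, SNX followed by a number, or CHMP followed by a number. The rule found 57 genes of 10542 listed, 29 VPS genes, 21 SNX genes and 7 CHMP genes, and used no measured value. DU145, a human line grown from a prostate cancer, was the source of all libraries. Its polyA RNA was sequenced after lentivirus carrying TFEB, a transcription factor of lysosomal and autophagy genes, had been introduced (DU145-TFEB, 3 libraries), and after a blank vector lentivirus (DU145-vector, 3 libraries), so that every library came from virus-treated cells and differed by the TFEB insert. The comparison asks how TFEB overexpression changed the transcript levels of the sorting machinery. The labels do not say that the libraries of a group came from separate cultures, so the p-values measure the spread between these libraries, which may be technical.

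The vacuolar protein sorting (VPS) genes are named after yeast mutants that missort vacuolar enzymes, and in human cells they encode the complexes that decide whether a protein in an endosome is recycled or degraded. Retromer, retriever and many sorting nexins (SNX, proteins with a phosphoinositide-binding PX domain) return receptors to the Golgi or the cell surface. The ESCRT complexes with their charged multivesicular body proteins (CHMP) wrap ubiquitinated receptors into internal vesicles for degradation, and HOPS and CORVET tether endosomes and lysosomes before they fuse.

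TFEB is known to bind the CLEAR element, a palindrome with the E-box CACGTG at its centre and the core TCACGTGA. RefSeq promoter windows (GRCh38.p14, 250 bases before to 50 after a start) were found for 43 of the 57 members, and each motif is its own reverse complement, so both strands are read at once. The E-box was present in 8 of these 43 members (18.6%, against 8.77% of 27305 genes with a window), 5 of the 17 higher in DU145-TFEB cells and 3 of the 26 lower. The background holds every gene with a window, listed here or not, while all members are listed protein-coding genes. The shares therefore come from unlike sets of genes, and the difference was not tested. The core TCACGTGA, which contains the E-box, was present in VPS11 and VPS26C (1.18% of all genes), and the 10-base palindrome with a further G and C at its ends was in none of the 43 windows (0.421% of all genes). A match is a description of the letters and does not show binding. The windows of these 2 genes are shown because they hold the core. Those of VPS16 and VPS8 are shown because both encode CORVET subunits, as VPS11 does, carry an E-box and moved in opposite directions. With a trend with GC content and gene length removed, described below, both were lower, at log2 fold changes of -0.25 and -0.84. Capitals mark the E-box or, where the flanking bases match, the core.
VPS11, chr11:119067568-119067867, plus strand: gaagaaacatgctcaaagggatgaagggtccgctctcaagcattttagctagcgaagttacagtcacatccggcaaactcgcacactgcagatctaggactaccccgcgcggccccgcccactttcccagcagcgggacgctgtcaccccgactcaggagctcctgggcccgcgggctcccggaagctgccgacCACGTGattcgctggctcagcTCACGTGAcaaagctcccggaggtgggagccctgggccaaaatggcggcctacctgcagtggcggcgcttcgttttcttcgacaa
VPS26C, chr21:37267285-37267584, minus strand: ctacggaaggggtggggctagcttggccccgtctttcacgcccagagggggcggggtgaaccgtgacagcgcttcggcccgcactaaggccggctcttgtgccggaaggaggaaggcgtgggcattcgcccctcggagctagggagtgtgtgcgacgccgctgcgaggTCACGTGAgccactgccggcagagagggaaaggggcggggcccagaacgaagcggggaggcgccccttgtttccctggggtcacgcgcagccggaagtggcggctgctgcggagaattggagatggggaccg
VPS16, chr20:2840495-2840794, plus strand: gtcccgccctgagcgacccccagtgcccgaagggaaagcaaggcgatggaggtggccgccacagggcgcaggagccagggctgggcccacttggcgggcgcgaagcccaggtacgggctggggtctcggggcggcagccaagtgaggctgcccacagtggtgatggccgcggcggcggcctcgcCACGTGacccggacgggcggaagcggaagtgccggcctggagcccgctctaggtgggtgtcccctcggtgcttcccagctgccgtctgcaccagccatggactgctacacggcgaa
VPS8, chr3:184811916-184812215, plus strand: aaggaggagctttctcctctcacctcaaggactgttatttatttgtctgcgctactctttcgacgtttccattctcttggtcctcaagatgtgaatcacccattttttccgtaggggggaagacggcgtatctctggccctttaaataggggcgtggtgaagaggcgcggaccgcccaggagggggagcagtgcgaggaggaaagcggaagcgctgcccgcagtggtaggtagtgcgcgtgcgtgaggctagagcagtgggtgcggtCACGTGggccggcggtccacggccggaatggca
The motifs of VPS11 were centred 53 and 31 bases before the start, that of VPS26C 78 bases before and that of VPS16 63 bases before, while that of VPS8 lay 20 bases after it.

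The 6 libraries held 13999961 to 16511477 reads on listed genes. TFEB itself was read at 6325, 6301 and 6036 normalized counts (reads divided by a size factor per library) with the TFEB lentivirus and at 127, 124 and 125 with the blank vector, as the labels have it. Of the epithelial markers, KRT8, KRT18 and KRT19 were listed, with means of 16980, 6385 and 1610 normalized counts in DU145-TFEB and 26870, 10840 and 2090 in DU145-vector. None of the leukocyte, fibroblast or endothelial markers looked for was listed. DU145-TFEB replicate 2 stood farthest from its group, with a chi-square of 13.8 and 26.6 per gene against the other two DU145-TFEB libraries, which differed from each other by 5.17. The table lists only genes with a deposited adjusted p-value below 0.05 on these same libraries, so a low p-value of a member is not independent evidence, and 19 genes of the same families, VPS29, VPS18, VPS33A, VPS39 and VPS53 among them, were not analysed here.

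All 57 members had an adjusted p-value below 0.05 (limma, Benjamini-Hochberg over all listed genes), against 10539 of the 10542 listed genes (100%), and these p-values ran from 3.27e-06 for VPS4B to 0.0197 for SNX25. In DU145-TFEB cells 24 members (42.1%) were higher, against 47.6% of listed genes, and 33 (57.9%) were lower, against 52.4%. Past the study's cutoff of 1.5 on the log2 scale, which is 2.83-fold, no member was higher (2.54% of listed genes) and 9 members (15.8%) were lower (16.5% of listed genes). These shares were near those of the whole table, which also lists genes that are not protein-coding. Of its 9222 protein-coding genes, 168 were past the cutoff higher and 1404 lower. The median log2 fold change of the members was -0.42, and of all listed genes -0.36. The 2 groups of libraries did not overlap for any of the 57 members, as for 99.3% of listed genes. In bulk RNA, fewer cells of a kind and less RNA per cell cannot be told apart.

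**Figure D1:**
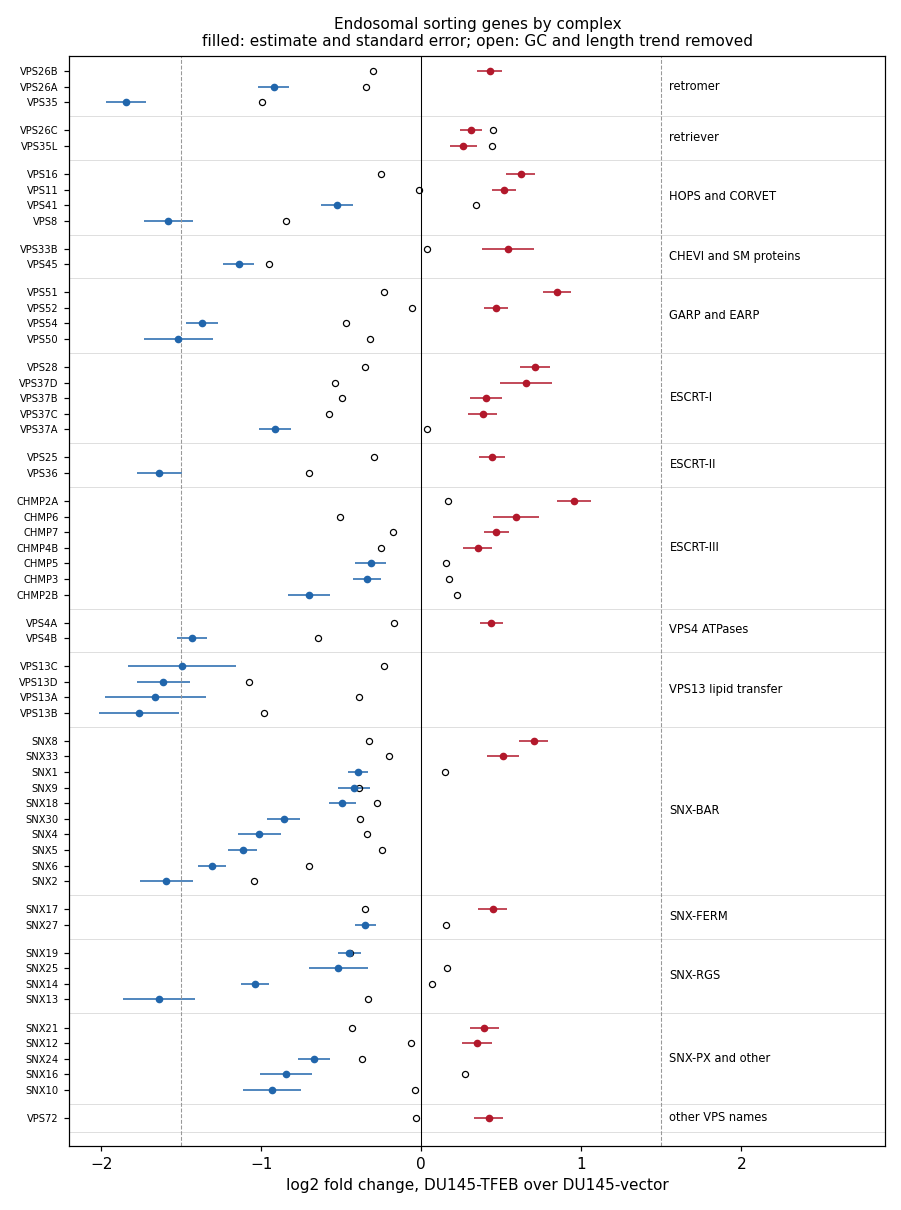
Each row is 1 of the 57 members, grouped by complex, and the horizontal axis is the log2 fold change of DU145-TFEB over DU145-vector. Filled points with bars are the limma estimate and its standard error (3 libraries a group, red higher and blue lower), open points are the estimate after the trend with GC content and gene length was removed, and dashed lines mark 1.5 in either direction. Most complexes hold members on both sides of 0, 9 filled points lie beyond the lower line and none beyond the upper one.

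The direction of a member went with the base composition of its transcript. All 21 members whose longest transcript was at least 50% G and C were higher in DU145-TFEB, and all 32 members under 48% were lower. Between 48% and 50%, VPS35L, VPS26C and SNX12 were higher and SNX19 was lower. These bounds were not part of the plan and enclose the members of mixed direction, so the full split outside them follows partly from their choice. The table also lists only genes selected as different on these libraries, which leaves out genes with little change. Among listed protein-coding genes the same was seen: 92.6% of 3984 genes with 50% or more were higher, and 9.26% of 4828 genes under 48%. Across the 57 members the rank correlation of log2 fold change with GC content was 0.83, and across 9217 listed protein-coding genes 0.77 (descriptions across genes, which share the same 6 libraries and are not independent). With gene length it was -0.50 across members and -0.38 across the protein-coding genes. The higher members had a median GC content of 55.7% and the lower ones of 40.9%. Each group that follows is therefore also given with this trend removed from each library. That removal did not centre the values, and the median log2 fold change of all listed genes was then -0.30. Directions with the trend removed are relative to no change, not to this median.

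**Figure D2:**
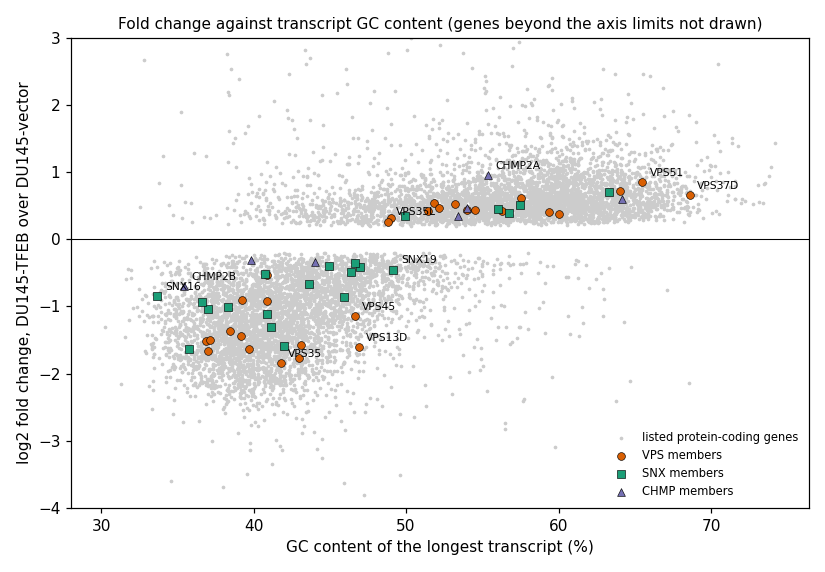
Log2 fold change of DU145-TFEB over DU145-vector (vertical axis) against the GC content of the longest transcript in percent (horizontal axis), grey for listed protein-coding genes and coloured for the 57 members. Members under 48% GC lie below 0 and those at 50% or more lie above it, and the table lists no gene close to 0.

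VPS35, the large scaffold of retromer (ENSG00000069329, chr16:46656132-46689518, minus strand, GRCh38), fell the most of the 57. Its normalized counts were 919, 807 and 1187 with TFEB and 3505, 3496 and 3344 with the vector. The highest DU145-TFEB library was thus far below the lowest DU145-vector library, and the log2 fold change was -1.85 (SE 0.126), a 3.55-fold lower mean (adjusted p = 3.69e-06, limma). Among the other 8 genes past the cutoff, 3 encode VPS13 proteins, bridge-like lipid transporters between membranes. VPS13B was at 302, 169 and 382 normalized counts in DU145-TFEB and at 868, 1030 and 860 in DU145-vector, a log2 fold change of -1.76 (SE 0.250). VPS13A was at 683, 302 and 868 against 1627, 1980 and 1769, a log2 fold change of -1.66 (SE 0.315). VPS13D was at 389, 288 and 483 against 1256, 1078 and 1148, a log2 fold change of -1.61 (SE 0.167). In each of the 3 genes DU145-TFEB replicate 2 was the lowest library of all and no DU145-TFEB library reached a DU145-vector library.

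The remaining 5 genes past the cutoff belong to 5 different complexes or families. VPS36, the ubiquitin-binding subunit of ESCRT-II (ENSG00000136100, chr13:52412602-52450628), had 289, 222 and 304 normalized counts in DU145-TFEB and 808, 960 and 765 in DU145-vector (log2 fold change -1.64, SE 0.142). SNX13, an endosomal nexin of the SNX-RGS family (ENSG00000071189, chr7:17790761-17940501), had 250, 150 and 303 against 649, 803 and 665 (log2 fold change -1.64, SE 0.227). SNX2, a membrane-bending sorting nexin that works with retromer, had 385, 303 and 494 against 1130, 1313 and 1071 (log2 fold change -1.59, SE 0.165). All 3 had the same shape, with DU145-TFEB replicate 2 lowest and DU145-vector replicate 2 highest. VPS8, the CORVET subunit that binds early endosomes, stood at 260, 220 and 344 against 797, 852 and 781 (log2 fold change -1.58, SE 0.152). VPS50, the subunit that sets EARP apart from GARP, stood at 144, 87.4 and 161 against 361, 410 and 327 (log2 fold change -1.52, SE 0.217). The groups again did not overlap, and VPS50 lay just inside the cutoff, followed outside it by VPS13C at -1.49 and VPS4B at -1.43. Without DU145-TFEB replicate 2, VPS35 was the 1 member still past the cutoff (log2 fold change -1.72).

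**Figure D3:**
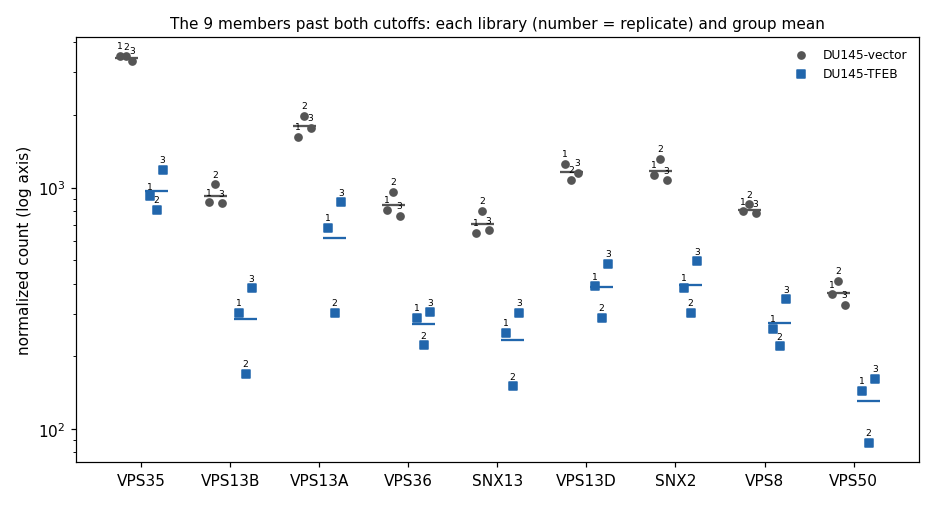
Normalized counts on a log axis for the 9 members past both cutoffs, 1 point a library with its replicate number, circles for DU145-vector and squares for DU145-TFEB, and a bar at the mean of 3. In all 9 the 3 squares lie below the 3 circles, and replicate 2 is the lowest square.

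The retromer core was read through 3 of its 4 genes on the list. VPS26A and VPS26B encode the alternative arrestin-like subunits that sit beside VPS35. VPS26A had 831, 758 and 842 normalized counts in DU145-TFEB and 1577, 1683 and 1365 in DU145-vector, a log2 fold change of -0.92 (SE 0.096). VPS26B moved the other way, with 1906, 2237 and 2046 against 1537, 1496 and 1560, a log2 fold change of 0.43 (SE 0.079). The 2 genes thus began at near-equal normalized counts in DU145-vector cells, 1542 and 1531, and ended at 810 and 2063. With the trend removed VPS35 was at -0.99, VPS26A at -0.35 and VPS26B at -0.30. Per kilobase of gene length, the level of VPS35 fell from 354 to 99.7 normalized counts per kb, from rank 11 to rank 31 of the 57.

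Retriever, the retromer-like complex that recycles integrins and other cargo of SNX17, gave a different picture. VPS26C had 1557, 1519 and 1563 normalized counts in DU145-TFEB and 1294, 1225 and 1222 in DU145-vector, a log2 fold change of 0.31 (SE 0.070). VPS35L, its scaffold, had 705, 718 and 688 against 607, 559 and 594, a log2 fold change of 0.26 (SE 0.083), the smallest change of the 57. Both rose by 1.24-fold or less, with no overlap between groups, and with the trend removed they stood at 0.45 and 0.44.

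Of the HOPS and CORVET tethers, 4 of 7 genes on the list were in the table, 2 higher and 2 lower (47.6% and 52.4% of listed genes). VPS16, a core subunit that both complexes share, rose from 481, 485 and 545 to 757, 802 and 764 normalized counts (log2 fold change 0.62, SE 0.090). VPS11, another shared core subunit and the gene with 2 E-boxes printed above, rose from 941, 863 and 888 to 1241, 1326 and 1289 (log2 fold change 0.52). VPS41, which is specific to HOPS, fell by 0.53 on the log2 scale, and CORVET-specific VPS8 fell by 1.58. The shared subunits read here were therefore higher, and the 2 complex-specific ones lower, but with the trend removed VPS16 was at -0.25, VPS11 at -0.02 and VPS41 at 0.34. The Sec1/Munc18-type fusion factors also divided: VPS33B rose by 0.54 from the lowest count of all members (57 reads in its lowest library), and 52.1% of its exonic bases are shared with another gene, while VPS45 fell from 1313, 1397 and 1265 to 536, 609 and 661 (log2 fold change -1.14, SE 0.097). VPS33B was at 0.03 and VPS45 at -0.95 with the trend removed. In the GARP and EARP tethers, which receive vesicles from endosomes at the Golgi and at recycling endosomes, VPS51 rose from 1902, 1606 and 1856 to 3118, 3493 and 3044 (log2 fold change 0.85, SE 0.089) and VPS52 by 0.47, whereas VPS54 fell by 1.37 and VPS50 fell by 1.52. All 4 were below 0 with the trend removed, VPS51 at -0.23, VPS52 at -0.06, VPS54 at -0.47 and VPS50 at -0.32.

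Of the 16 ESCRT and VPS4 genes, 10 were higher and 6 lower (47.6% and 52.4% of listed genes), and the median log2 fold change was 0.39. With the trend removed 11 of the 16 were called lower and none higher (53.4% and 15.6% of listed genes). The median was then -0.28, near the -0.30 of all listed genes. In ESCRT-I, which captures ubiquitinated cargo, VPS28 rose from 943, 796 and 870 to 1423, 1523 and 1325 normalized counts (log2 fold change 0.71, SE 0.092). The alternative VPS37 subunits did not move as one. VPS37A fell from 657, 696 and 692 to 365, 329 and 395 (log2 fold change -0.91), while VPS37B, VPS37C and VPS37D rose by 0.41, 0.38 and 0.65. All 5 ESCRT-I genes changed direction with the trend removed, as 33.6% of listed genes did. VPS28 went to -0.35, VPS37B to -0.49, VPS37C to -0.58 and VPS37D to -0.54, all called lower. VPS37A went to 0.04, which was not called. In ESCRT-II, VPS25 rose from 1161, 1130 and 1244 to 1524, 1710 and 1571 (log2 fold change 0.44, SE 0.079), opposite to its partner VPS36, and with the trend removed VPS25 was at -0.30 and VPS36 at -0.70.

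The ESCRT-III filament genes numbered 7, of which 4 were higher and 3 lower (47.6% and 52.4% of listed genes). Of 11 on the list, these 7 were in the table. CHMP2A, a late-acting filament subunit, had the largest rise of all 57 members. Its normalized counts went from 1290, 985 and 1263 in DU145-vector to 2376, 2288 and 2151 in DU145-TFEB (log2 fold change 0.95, SE 0.108, 1.93-fold, adjusted p = 3.31e-05, limma). Its paralog CHMP2B fell from 335, 355 and 294 to 225, 185 and 194 (log2 fold change -0.70, SE 0.129). CHMP4B, the main filament-forming subunit, rose from 2049, 1757 and 1873 to 2417, 2648 and 2192 (log2 fold change 0.35). CHMP6 and CHMP7, which start filaments, rose by 0.59 and 0.47, and CHMP5 and CHMP3 fell by 0.32 and 0.34, the latter at 0.04 under quantile normalization. Of the 7, 6 changed direction when the trend was removed (33.6% of listed genes). CHMP6 (-0.51), CHMP7 (-0.18) and CHMP4B (-0.25) were then called lower, and CHMP2B (0.23), CHMP5 (0.16) and CHMP3 (0.18) were above 0 and not called. The ATPases that take the filaments apart also split: VPS4A rose from 1238, 1208 and 1268 to 1664, 1771 and 1601 (log2 fold change 0.44), and VPS4B fell from 940, 1021 and 881 to 341, 344 and 363 (log2 fold change -1.43, SE 0.093). Both were lower with the trend removed, VPS4A at -0.17 and VPS4B at -0.65.

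All 4 VPS13 genes were lower, between -1.76 for VPS13B and -1.49 for VPS13C on the log2 scale, and between -1.08 and -0.23 with the trend removed. Their GC contents were at most 46.9%, and of 4828 listed protein-coding genes under 48% GC 4381 were lower. VPS13C, which was not past the cutoff, had 322, 120 and 350 normalized counts in DU145-TFEB against 638, 699 and 685 in DU145-vector. Replicate 2 of DU145-TFEB was less than the other two in each of the 4 genes. These genes had the longest coding sequences of any complex, with a median of 11660 bases, against 1359 for the 57 members.

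Of the 21 sorting nexins, 5 were higher and 16 lower (47.6% and 52.4% of listed genes), and the median log2 fold change was -0.52. With the trend removed 2 were called higher and 14 lower (15.6% and 53.4% of listed genes). Direction changed in 10 (33.6% of listed genes), and the median was -0.33 (-0.30 for all listed genes). The SNX-BAR proteins, which bend membranes into recycling tubules, counted 2 higher and 8 lower genes (47.6% and 52.4% of listed genes). SNX6 was the most abundant member in DU145-vector at 1729 normalized counts per kb, and fell to 699 per kb, rank 4 of 57. Its normalized counts were 2664, 2830 and 3113 in DU145-TFEB and 6806, 7793 and 6696 in DU145-vector (log2 fold change -1.31, SE 0.086). SNX5, the paralog of SNX6, fell from 1791, 2007 and 1735 to 812, 812 and 926 (log2 fold change -1.12, SE 0.090). SNX1, the partner of SNX5 and SNX6, fell less, from 3104, 3055 and 3133 to 2442, 2284 and 2336 (log2 fold change -0.40, SE 0.064). SNX8, which also acts in transport from endosomes to the Golgi, was 1 of the 2 higher genes of the class, with SNX33, and went from 1459, 1316 and 1478 to 2207, 2561 and 2161 (log2 fold change 0.70, SE 0.089). Removing the trend put SNX6 at -0.70, SNX5 at -0.25, SNX1 at 0.15, SNX8 at -0.33 and SNX33 at -0.20.

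Among the nexins with a FERM-like domain, SNX17, the cargo adaptor of retriever, rose from 4079, 3748 and 4160 to 5218, 6229 and 4937 normalized counts (log2 fold change 0.45, SE 0.093). SNX27, the adaptor that links cargo to retromer, fell from 2334, 2480 and 2402 to 1901, 1834 and 1931 (log2 fold change -0.35, SE 0.067). SNX17 went to -0.35, called lower, and SNX27 to 0.16, not called, when the trend was removed. The 4 nexins of the SNX-RGS family were all lower, from -1.64 for SNX13 to -0.45 for SNX19, but SNX14 (0.07) and SNX25 (0.16) were above 0 with the trend removed. SNX13, SNX14 and SNX25 were under 48% GC, as were 4828 listed protein-coding genes, of which 4381 were lower. Of the 5 other nexins, SNX21 had the highest log2 fold change, at 707, 775 and 684 in DU145-TFEB against 563, 560 and 524 (log2 fold change 0.39), and SNX10, which takes part in endosome and lysosome maintenance, had the lowest, at 256, 245 and 361 against 526, 663 and 455 (log2 fold change -0.93). The DU145-TFEB and DU145-vector libraries did not overlap for either gene, and with the trend removed SNX21 was at -0.43 and SNX10 at -0.04. VPS72 is caught by the name rule but encodes a subunit of chromatin remodelers that handle histone H2A.Z, not an endosomal protein. It rose by 0.42 (-0.03 with the trend removed), and 40.5% of its exonic bases are shared with other genes.

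The ratio of 2 paralogs within a library does not depend on the library's size factor. Of 15 pairs on a list, 10 had both genes in the table, 4 with the genes moving in opposite directions and 6 in the same. The log2 ratio of VPS4A to VPS4B was 2.28, 2.36 and 2.14 in DU145-TFEB and 0.40, 0.24 and 0.52 in DU145-vector. On a linear scale there were 4.79 VPS4A counts for each VPS4B count in DU145-TFEB and 1.31 in DU145-vector. CHMP2A over CHMP2B went from 3.57 to 11.3 on the linear scale, a difference of 1.66 on the log2 scale (SE 0.201). SNX1 over SNX2 went from 2.65 to 6.08, a difference of 1.20 (SE 0.219). VPS26A over VPS26B fell from 1.00 to 0.394, a log2 difference of -1.35, and VPS37A over VPS37B from 1.58 to 0.632, a log2 difference of -1.32. The other pairs differed by at most 0.60 in size, among them VPS37B over VPS37C by 0.02 and SNX9 over SNX18 by 0.08, for which the groups overlapped. The groups did not overlap in 8 pairs, and in 6 pairs with the trend removed. With 3 libraries against 3 an exact two-sided permutation test cannot give less than 0.1, which each of these 8 reached (0.125 after Benjamini-Hochberg adjustment over 10 pairs), and it gave 0.9 for VPS37B over VPS37C and 0.3 for SNX9 over SNX18.

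**Figure D4:**
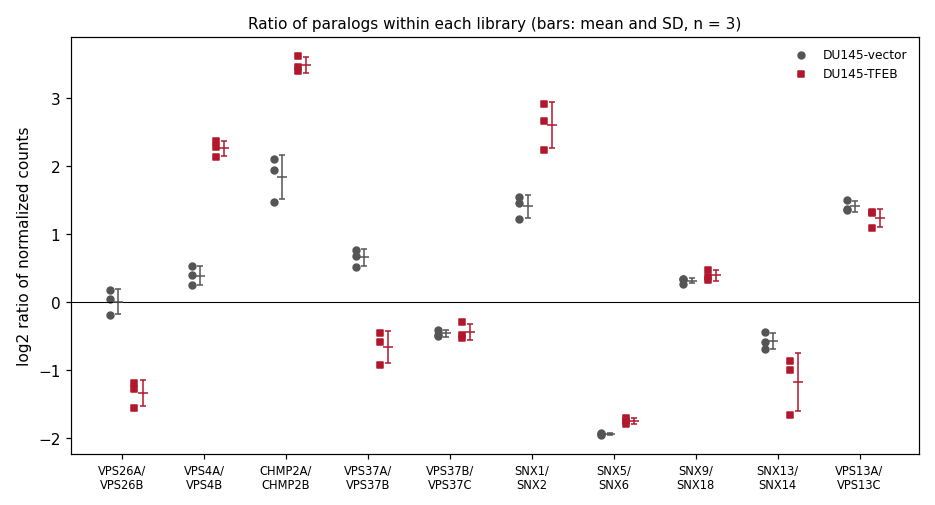
The vertical axis is the log2 ratio of the normalized counts of 2 paralogs within a library. Circles are DU145-vector and squares DU145-TFEB libraries, and bars are the mean and SD of 3. The groups lie apart for VPS26A over VPS26B, VPS4A over VPS4B, CHMP2A over CHMP2B and SNX1 over SNX2, and overlap for VPS37B over VPS37C.

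When the trend with GC content and gene length was removed from each library, 42 members (73.7%) still had an adjusted p below 0.05 in limma, against 69% of listed genes. Of these, 5 (8.77%) were higher (15.6% of listed genes) and 37 (64.9%) lower (53.4% of listed genes). No member was then past the cutoff of 1.5, for which the background was 1.35% higher and 4.54% lower. Of 9217 listed protein-coding genes, 98 were then past it higher and 236 lower. The direction differed from the first estimate in 30 of 57 members (52.6%, against 33.6% of listed genes). The median was -0.30 both for the members and for all listed genes. Calls and changes of direction are counted from 0 and not from this median. Of the 24 higher members, VPS26C (0.45) and VPS35L (0.44), the retriever pair, stayed higher and were called, and 16 were called lower. Of 4330 listed protein-coding genes that were higher at first, 1032 were called higher and 1772 were called lower. CHMP2A stayed above 0 at 0.17 but was not called (adjusted p = 0.0949). VPS51, VPS16, VPS28, VPS26B, VPS4A, SNX8 and SNX17 were called lower, at -0.17 to -0.35, a range that holds the median of all listed genes. Of the 33 lower members 21 stayed lower and were called, and VPS41 (0.34), SNX16 (0.27) and SNX1 (0.15) were called higher. VPS41 and SNX16 are named because this count is small, after their values were seen. Of 4887 listed protein-coding genes that were lower at first, 3336 were called lower and 310 were called higher.

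The lower members with the largest remaining changes were VPS13D at -1.08, SNX2 at -1.04, VPS35 at -0.99, VPS13B at -0.98, VPS45 at -0.95 and VPS8 at -0.84. Of the 16 ESCRT and VPS4 genes, 13 changed direction (33.6% of listed genes). Of the paralog ratios, SNX1 over SNX2 kept its difference, 1.19 with the trend removed, and the GC contents of these transcripts, 45.0% and 42.0%, are close. VPS4A over VPS4B kept 0.48 of 1.87, VPS26A over VPS26B went to -0.05 and CHMP2A over CHMP2B to -0.06. The GC contents of these 3 pairs of transcripts differ by 14.8 to 19.9 percentage points. SNX5 over SNX6 (40.9% and 41.2%) went from 0.19 to 0.45, and SNX9 over SNX18 (47.0% and 46.4%) from 0.08 to -0.11. VPS37A over VPS37B (39.2% and 59.3%) went from -1.32 to 0.53. SNX13 over SNX14 went from -0.60 to -0.40 and VPS13A over VPS13C from -0.17 to -0.15. VPS37B over VPS37C went from 0.02 to 0.08. The removed trend holds gene length as well as GC content. The trend separates the groups as TFEB does, so a technical trend and a biological one cannot be told apart.

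**Figure D5:**
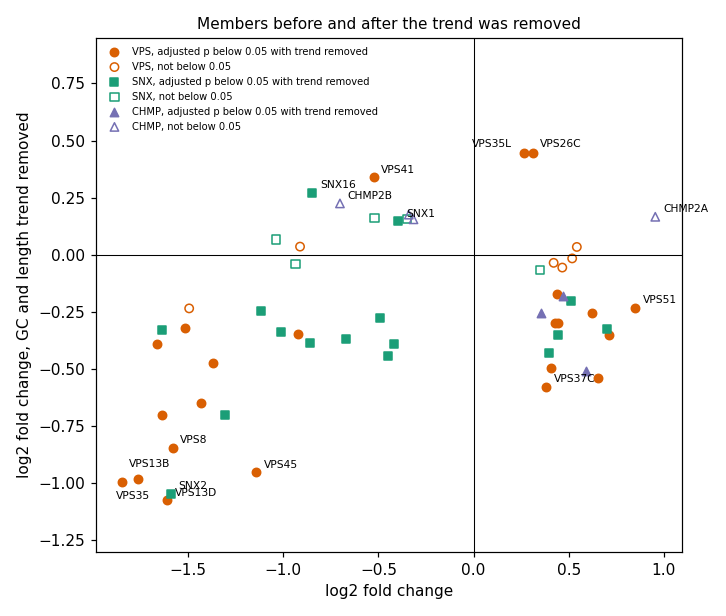
Each point is 1 of the 57 members, with the first log2 fold change on the horizontal axis and the one after removal of the GC and length trend on the vertical axis. Filled points had an adjusted p below 0.05 with the trend removed. VPS35, SNX2, VPS13B, VPS13D, VPS45 and VPS8 lie lowest at the left, VPS26C and VPS35L are the filled points at the upper right, and most members at the right lie below 0.

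Genes that work with the members but do not carry their names moved in both directions as well. Of 58 on the list, 43 were in the table, 18 higher and 25 lower (47.6% and 52.4% of listed genes), with 8 past the lower cutoff (16.5% of listed genes) and a median log2 fold change of -0.49. With the trend removed 8 were called higher and 22 lower (15.6% and 53.4% of listed genes), none was past the cutoff and the median was -0.22. In ESCRT-0, which hands cargo to ESCRT-I, STAM fell by 1.17 and STAM2 fell by 1.56 on the log2 scale (-0.72 and -0.44 with the trend removed). USP8, which removes ubiquitin from cargo, had 439, 378 and 495 normalized counts in DU145-TFEB against 1459, 1739 and 1364 (log2 fold change -1.80, and -0.76 with the trend removed), while the ESCRT-I subunit MVB12B was higher by 0.60 but called lower, at -0.23, with the trend removed. The WASH complex, which builds actin on retromer-coated endosomes, had 3 listed genes, all lower, from WASHC4 at -1.93 to WASHC3 at -0.43 (-0.72 and -0.23 with the trend removed). Their GC contents were at most 43.4%, and of 4828 listed protein-coding genes under 48% GC 4381 were lower. In the COMMD and CCC complex, which works with retriever, COMMD6 was highest at 0.83 and CCDC93 lowest at -1.39 (1.28 and -1.05 with the trend removed). Of the retromer regulators, RAB7A was highest at 0.30 and ANKRD50 lowest at -2.02 (0.14, not called, and -0.99 with the trend removed). Of the tether partners PLEKHM1 was highest at 0.60, and stood at -0.05 with the trend removed.

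The genes for endosomal phosphoinositide kinases and their subunits included VAC14, the scaffold of the PIKFYVE complex and the highest at 0.75 (-0.05 with the trend removed), and the kinase gene PIKFYVE, the lowest of all partners, with 279, 155 and 419 normalized counts in DU145-TFEB against 1154, 1306 and 1204 in DU145-vector (log2 fold change -2.21, SE 0.287, and -1.33 with the trend removed). Of the 6 cargo receptors, 3 were higher and 3 lower (47.6% and 52.4% of listed genes). LRP1, an endocytic receptor that SNX17 recycles, had 7070, 5809 and 6847 against 3004, 2761 and 3241 (log2 fold change 1.13, SE 0.093, and 0.68 with the trend removed). TFRC, the transferrin receptor, had 1357, 1397 and 1451 against 5374, 6788 and 5477 (log2 fold change -2.06, SE 0.095, and -1.25 with the trend removed). All 6 libraries were apart by group in both receptors.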

How the data were processed

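The 6 libraries, 3 of DU145-TFEB and 3 of DU145-vector cells, were made from polyA RNA with the NEBNext Ultra kit. The submitters' processing notes name CASAVA 1.8, HISAT2 2.1.0, edgeR and GRCh38/hg38, and the paper names DESeq2. The strand setting of the counting is not given in the sources used here, so the 32 of 57 members whose exons overlap other genes are uncertain, above all VPS33B, VPS72, SNX21, VPS4A and VPS37B (36 to 52.1% of exonic bases). The authors deposited a normalized signal, each count divided by 1 size factor per library, with 2 columns of group means that were not used. The authors also deposited p-values and log2 fold changes, of which the adjusted p-value alone was read, to check how genes were selected. All columns of single libraries were used.

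Values as log2(normalized count + 1) of genes with a mean of at least 1 were fitted with limma 3.58.1 (trend, R 4.3.3) without a block. The threshold was a Benjamini-Hochberg adjusted p below 0.05 and, for the cutoff, a log2 fold change beyond 1.5 in size. Reads were recovered as whole numbers (within 0.01 read) in 100% of values and refitted with edgeR 4.0.16 and DESeq2 1.42.0. Positions of all 57 members equal those of GENCODE 29. The GC and length trend was a loess (span 0.5) of each library's deviation from the gene mean on the GC content of the longest GENCODE transcript and on log2 gene length. The methods were also run on simulated data with a small share of genes changed, unlike here, and the outcome is not used as support. Named genes are the members past both cutoffs, the highest and lowest member of each complex, the members of paralog pairs, and the highest and lowest partner of each class. Further members were named after their values were seen, and 2 genes outside the members are not reported here. The members, lists and pairs were chosen with earlier results of these data known. Read counts limit precision: the lowest member count was 57 reads.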

Additional observations from a re-analysis of the deposited data

How the results depend on the processing

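Of 814 values recomputed under alternatives, 756 were labelled the same. For single genes and ratios, direction and side of the threshold were then kept, or the value stayed within the spread. Counts were labelled the same when near the reported count, so members could gain or lose a call. The count called lower, 33 as reported, was labelled the same at 26 with quantile normalization, 27 in DESeq2 and 37 with the trend removed. The total of 756 includes filters on low values and the replicate block, which could not change a member's fold change. With the trend removed without the block, 22 values of single genes and ratios reversed, 4 were weaker, 3 moved and 23 stayed the same. Alternatives were pseudocounts of 0.5 and 5, filters on low values, library size scaling, quantile normalization, edgeR, DESeq2, the replicate block, removal of the GC and length trend, and leaving out each library. The count of members past the lower cutoff, 9 as reported, was 0 with the trend removed, with or without the block, 1 (VPS35) under quantile normalization and under DESeq2, 5 under edgeR and 17 with a cutoff of 1 on the log2 scale. It ranged from 1 to 10 when a library was left out, with 1 (VPS35) without DU145-TFEB replicate 2. The count of called members that were higher, 24 as reported, was 5 with the trend removed and 4 with the block added. The genes called also changed with the block. CHMP2A was then called higher (adjusted p = 0.0462, limma). SNX1 (0.0706), VPS4A (0.0505) and VPS50 (0.0583), called without the block, were not. The median log2 fold change of the members, -0.42, was -0.30 with the trend removed, with or without the block, -0.47 with library size scaling, -0.22 with quantile normalization, -0.34 in edgeR, -0.18 in DESeq2, and -0.49 to -0.36 when a library was left out. Scaling moved the median of all listed genes from -0.36 to -0.12 in DESeq2 and to -0.03 with quantile normalization. Relative to that, the members' median was -0.06 as reported, -0.06 in DESeq2 and -0.19 with quantile normalization. The count of called members that were lower, 33 as reported, was 27 in DESeq2, with SNX1 (-0.16), SNX9 (-0.18) and SNX27 (-0.11) among those not called, and 26 with quantile normalization, where CHMP2B, CHMP3, CHMP5, SNX9, SNX24, SNX25 and VPS41 were not called.

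With the trend removed, and at the same values with the block added, 30 members reversed direction. Among the genes named by the rule these were CHMP2B (0.23), CHMP4B (-0.25), SNX1 (0.15), SNX8 (-0.33), SNX12 (-0.0674), SNX14 (0.0671), SNX17 (-0.35), SNX21 (-0.43), SNX27 (0.16), VPS4A (-0.17), VPS16 (-0.25), VPS25 (-0.30), VPS26B (-0.30), VPS28 (-0.35), VPS37A (0.036), VPS37B (-0.49), VPS37C (-0.58), VPS51 (-0.23) and VPS72 (-0.035), and beside them CHMP3, CHMP5, CHMP6, CHMP7, SNX16, SNX25, SNX33, VPS11, VPS37D, VPS41 and VPS52. The log2 ratios also reversed for CHMP2A over CHMP2B (-0.0585), VPS37A over VPS37B (0.53) and SNX9 over SNX18 (-0.11). The ratio of VPS37B over VPS37C reversed to -0.0456 without DU145-TFEB replicate 2, and ranged up to 0.067 without another library. The cause was not tested. The replicate block left 24 members called higher, 33 called lower and 9 past the lower cutoff. The numbers share no origin in the labels, and the deviations of same-numbered libraries correlated at -0.02, -0.25 and -0.14, so they were not taken as pairs.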
